A study of Mus musculus with 10 samples.

Results

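Levels of 10 mouse genes of the kinetochore and the spindle checkpoint were compared between cortical cells with a Chd8 shRNA and cells with a control shRNA. The genes were taken by symbol (Bub1, Bub1b, Bub3, Ttk, Mad2l1, Ndc80, Nuf2, Spc25, Cenpe and Cenpf), and all 10 were among the 23235 symbols of both expression tables. Chd8 codes for a chromatin remodeler of the CHD family. Plasmids for GFP and an shRNA were put into embryonic cortex by in utero electroporation at embryonic day 13, and GFP-positive cells were sorted at embryonic day 15, with the cortices of 3 to 5 embryos pooled per replicate. The new set holds 3 Chd8 knockdown and 3 control libraries (replicates 10, 11 and 12), and the first set holds 2 Chd8 knockdown and 2 control libraries (replicates 1 and 2). Cells of every group carried GFP with an shRNA, and the strain is not given in the labels. By the replicate numbers of the submitters' design, new-set knockdown used Chd8 sh1 and first-set knockdown used Chd8 sh2. The hairpin, the batch and the table therefore change at the same time, and their parts in a difference between sets cannot be told apart.

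The kinetochore is the protein assembly on a centromere that holds spindle microtubules during mitosis. Its Ndc80 complex binds the microtubule, and unattached kinetochores recruit the kinases Ttk and Bub1, which start the spindle checkpoint. Mad2l1, Bub1b and Bub3 then form, with Cdc20, an inhibitor that holds back the anaphase-promoting complex until every chromosome is attached. In the embryonic cortex mitosis takes place in radial glia and intermediate progenitors, while neurons have left the cell cycle, and transcripts of most of these genes are known to peak in G2 and mitosis. In sorted bulk cells, fewer dividing cells and less RNA per dividing cell cannot be told apart.

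Sequences before the transcription start were examined because the genes moved in the same direction in most comparisons. In the 250 bases upstream of the start (RefSeq, build GRCm38.p6), 7 of the 10 genes held a CCAAT box (CCAAT on either strand), the site of the factor NF-Y, and 5 held 2 of them. Of all 32851 promoter windows of the same length, 33.8% held a CCAAT box and 10.1% held at least 2. These shares count windows and not genes. The 10 genes have 11 windows, of which 8 held a CCAAT box. Bub3 has 2 overlapping windows that hold the same boxes, and its stretch before the more upstream start is printed below. The CHR element of late cell cycle promoters (TTTGAA on either strand) was in Bub3 alone of the 10, against 16% of all windows. E2F cores (TTCCCGC on either strand, or the variant TTGGCGC, the variant TTCGCGC or the variant TTGCCGC) were in none of the 10 and in 7.89% of all windows. These are letter matches and not measured sites. Bases after the start were not searched, so elements there or with other letters would be missed. The 140 bases up to the start are printed 5′ to 3′ on the gene's strand for the 5 genes with 2 CCAAT boxes and for Nuf2, which has none. Capitals mark the CCAAT box on either strand (ATTGG where it lies on the other strand) and, in Bub3, the CHR element as TTCAAA.
Bub1: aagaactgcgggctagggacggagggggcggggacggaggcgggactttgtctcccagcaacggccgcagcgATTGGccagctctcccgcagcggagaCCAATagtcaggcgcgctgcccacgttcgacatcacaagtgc
Ttk: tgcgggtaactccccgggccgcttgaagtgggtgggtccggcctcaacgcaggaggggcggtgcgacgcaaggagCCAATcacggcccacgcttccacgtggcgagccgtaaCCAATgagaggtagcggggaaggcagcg
Bub3: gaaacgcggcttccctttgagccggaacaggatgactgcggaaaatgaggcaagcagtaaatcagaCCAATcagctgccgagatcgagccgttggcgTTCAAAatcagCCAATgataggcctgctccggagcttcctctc
Spc25: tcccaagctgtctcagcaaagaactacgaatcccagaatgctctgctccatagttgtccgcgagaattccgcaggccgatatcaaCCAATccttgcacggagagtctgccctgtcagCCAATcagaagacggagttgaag
Cenpf: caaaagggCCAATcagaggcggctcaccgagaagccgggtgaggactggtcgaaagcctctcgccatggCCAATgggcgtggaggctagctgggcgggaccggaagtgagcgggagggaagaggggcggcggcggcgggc
Nuf2: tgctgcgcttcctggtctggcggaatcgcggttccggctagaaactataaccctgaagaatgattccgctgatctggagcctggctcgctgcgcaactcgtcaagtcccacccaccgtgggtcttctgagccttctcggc
The stretches are chr2:127831860-127831999 on the minus strand for Bub1, chr9:83834549-83834688 on the plus strand for Ttk, chr7:131560230-131560369 on the plus strand for Bub3, chr2:69206214-69206353 on the minus strand for Spc25, chr1:189688087-189688226 on the minus strand for Cenpf and chr1:169531465-169531604 on the minus strand for Nuf2. The boxes of a pair lay 26 bases apart in Bub1, 37 in Ttk, 42 in Bub3, 32 in Spc25 and 61 in Cenpf. Bub1b and Cenpe held 1 box each, and Mad2l1, Ndc80 and Nuf2 held none.

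Levels are FPKM, fragments scaled by transcript length and by mapped fragments. Chd8 was at 1.95 ± 0.124 FPKM in new-set knockdown cells and 3.64 ± 0.366 FPKM in new-set controls (SD, n = 3 each). First-set cells had 8.89 ± 0.479 FPKM with knockdown and 13.1 ± 1.02 FPKM with the control shRNA (SD, n = 2 each). Groups did not overlap in either set, and Chd8 passed in the new set (limma adjusted p = 0.0213) but not in the first (adjusted p = 0.152). Absolute depth is unknown, but the steps between low values gave relative depths of 0.953 to 1.39 for new-set libraries, 0.525 and 0.529 in first-set knockdown replicates 1 and 2, against 1.22 in first-set control replicate 2 (control replicate 10 or 1 set to 1). The first-set knockdown libraries stand apart. Olfactory receptor genes, silent in cortex, averaged 0.672 and 0.557 FPKM there and at most 0.00817 FPKM in the other 8 libraries. Markers of radial glia and neurons were present in every group (sums given at the end), whereas in each new-set group 7 of 8 endothelial and all 6 meningeal markers stayed under 1 FPKM. Endothelial sums were 1.34 to 2.87 FPKM in new-set knockdown libraries and 2.58 to 2.91 FPKM in new-set controls. First-set sums were higher, at 11.2 to 13.3 FPKM with knockdown and 11.2 to 16.5 FPKM in controls. Of that list Rgs5 averaged 7.55 FPKM in first-set knockdown cells and 11.9 FPKM in first-set controls.

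Mean levels of the 10 genes were lower with knockdown in both sets, apart from Bub3 in the new set. Fold changes are differences in log2(FPKM + 1) fitted with limma on every gene whose mean in the table reached 1 FPKM, and a gene is called changed at a Benjamini-Hochberg adjusted p under 0.05. In the new set 1 of the 10, Nuf2, fell and 9 did not pass, where 8.99% of the 11291 genes tested were called, 5.15% lower and 3.84% higher. The median log2 fold change of the 10 was −0.40, against 0.02 over all genes tested. At an unadjusted limma p under 0.05 there were 6 of the 10, but the share of all genes at that threshold was not counted, so this number cannot be weighed. First-set cells showed a fall in 6 of the 10, and 4 did not pass, where 23.8% of 12461 genes were called, 10.7% lower and 13.2% higher. The median there was −0.80, against −0.15 over all genes. With both sets joined, all 10 fell (limma adjusted p from 0.000448 to 0.0477), where 29.9% of 10827 genes were called, 20.5% lower and 9.37% higher. After median-of-ratios rescaling of the first set, which moved the median of all its genes to 0.01, the median of the 10 was −0.63 and 3 of them passed: Bub1, Bub1b and Ttk. With a correction for GC content and transcript length, chosen after seeing the data, the first-set median of the 10 was −0.53 and 4 passed. Mad2l1 (−0.55, limma adjusted p = 0.105) and Cenpe (−0.52, adjusted p = 0.131) then missed the threshold, and Bub3, Ndc80 and Cenpf were at −0.36, −0.35 and −0.23. Bub1b alone passed in the first set without control replicate 1 or 2 (limma adjusted p = 0.0365 and 0.0199), and without knockdown replicate 1 or 2 it missed the threshold as well (adjusted p = 0.06 and 0.0591).

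**Figure D1:**
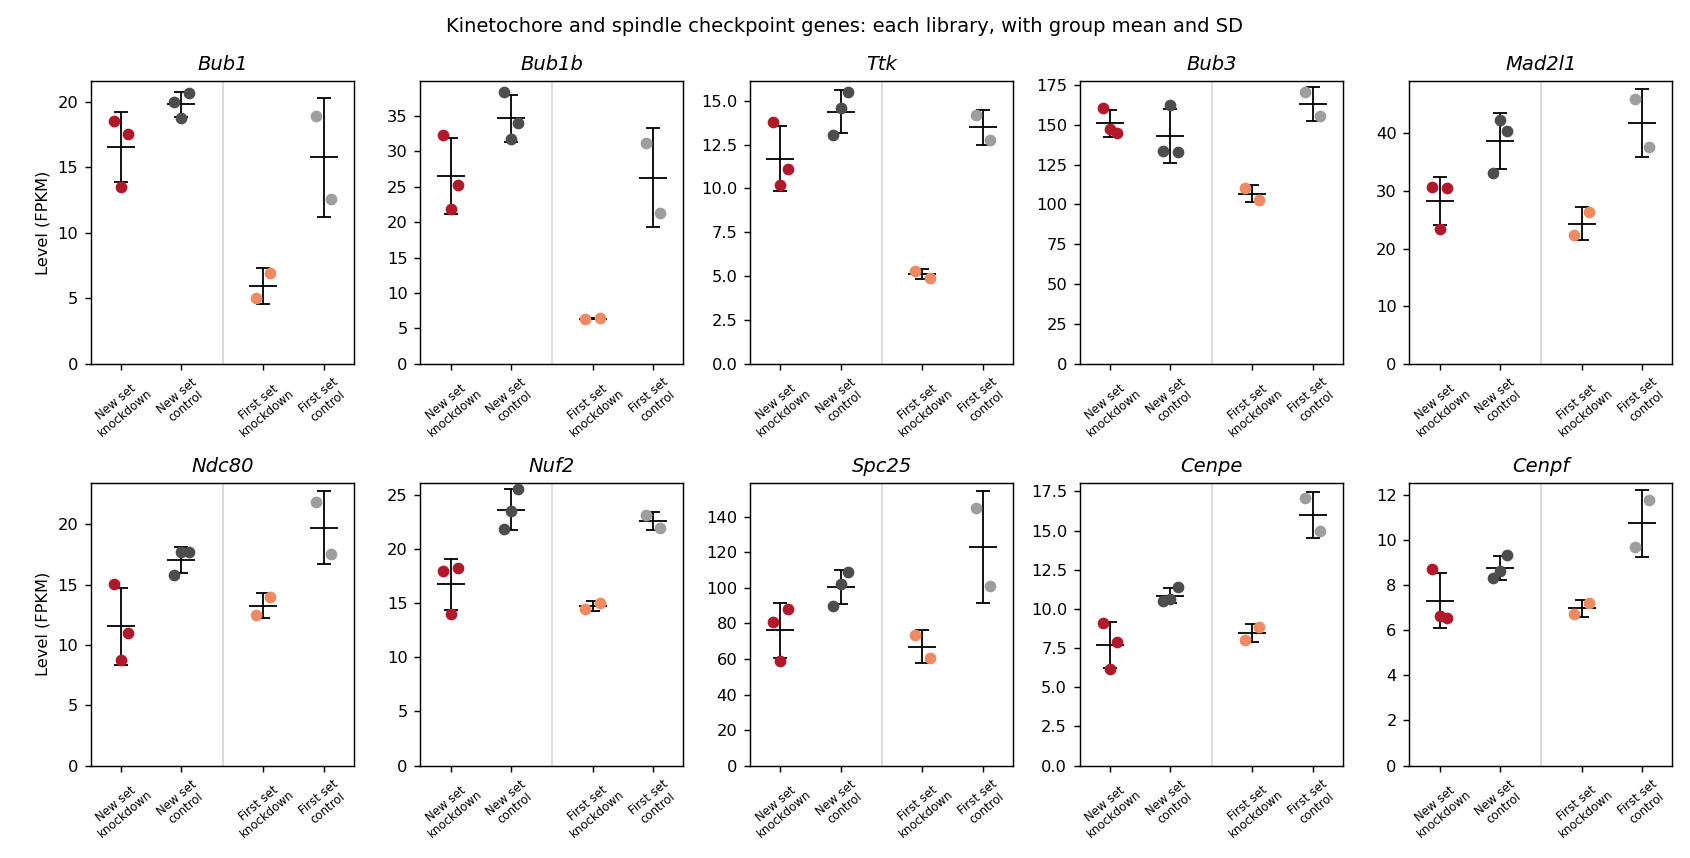
Level of each of the 10 genes in FPKM (y axis, from 0) in each library; points are libraries, grouped as new-set knockdown, new-set control, first-set knockdown and first-set control, and bars give the mean and SD (n = 3, 3, 2 and 2). All 10 genes are lower in both first-set knockdown libraries than in both first-set controls, and Bub3 is the only gene whose new-set mean is higher with knockdown (151 against 143 FPKM).

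Bub1b, Ttk and Bub1 had the largest joined falls of the 10, with first-set values far below the new-set ones. Bub1b codes for BubR1, a kinase-like protein of the inhibitor complex. Bub1b was at 32.4, 21.9 and 25.3 FPKM in new-set knockdown replicates 10, 11 and 12, against 38.3, 31.8 and 34.0 FPKM in the controls, so knockdown replicate 10 lay within the control range. First-set knockdown cells had 6.29 and 6.41 FPKM, against 31.2 and 21.4 FPKM in controls, or 24.2% of the control mean and far from overlap. Bub1b fell in the first set by 1.87 on the log2 scale (SE 0.262, limma adjusted p = 0.00339) and by 1.13 in the joined fit (SE 0.134, adjusted p = 0.000448). The new-set value was −0.39 (SE 0.143, adjusted p = 0.115). With the replicate block, which uses the pairing of knockdown and control libraries by number, Bub1b also fell in the new set (adjusted p = 0.024).

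Bub1, the kinase that phosphorylates histone H2A at centromeres, was at 18.5, 13.5 and 17.6 FPKM in new-set knockdown cells, against 20.0, 18.7 and 20.6 FPKM in controls. The groups did not overlap, though knockdown replicate 10 lay just under the lowest control. First-set values were 4.99 and 6.92 FPKM with knockdown, against 18.9 and 12.6 FPKM in controls, or 37.8% of the control mean. Bub1 fell in the first set (−1.25, SE 0.294, limma adjusted p = 0.024) and with both sets joined (−0.76, SE 0.14, adjusted p = 0.00344), and its new-set value was −0.26 (SE 0.125, adjusted p = 0.206).

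Ttk codes for Mps1, the kinase at the top of the checkpoint. It was at 13.8, 10.2 and 11.1 FPKM in new-set knockdown cells, against 13.1, 14.6 and 15.5 FPKM in controls, with knockdown replicate 10 above control replicate 10. With first-set knockdown it was at 5.31 and 4.91 FPKM, against 14.2 and 12.8 FPKM in controls. The first-set groups were well apart and each varied little. Ttk fell in the first set (−1.24, SE 0.239, limma adjusted p = 0.0119) and joined (−0.76, SE 0.11, adjusted p = 0.00116). Its new-set value of −0.28 (SE 0.128, adjusted p = 0.181) did not pass.

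Bub3, the WD-repeat partner that brings Bub1 and BubR1 to kinetochores, was the most abundant of the 10 and had the smallest fold change in the new set and joined, though not in the first set. It was at 161, 147 and 145 FPKM in new-set knockdown cells, against 134, 162 and 133 FPKM in controls, and these ranges overlapped throughout (0.08, SE 0.102, limma adjusted p = 0.62). First-set knockdown cells had 110.5 and 103 FPKM, against 171 and 156 FPKM in controls, a difference with no overlap that did not pass (−0.61, SE 0.193, adjusted p = 0.0593). The joined fall of −0.26 (SE 0.0904, adjusted p = 0.0477) passed narrowly, and it was lost with the GC and length correction (−0.14, adjusted p = 0.258), after median-of-ratios rescaling (−0.18, adjusted p = 0.161), with no intensity trend (adjusted p = 0.0661) and when any 1 of the 10 libraries was left out (adjusted p from 0.0508 to 0.114).

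Mad2l1 codes for Mad2, the protein that captures Cdc20 at the heart of the checkpoint. New-set knockdown cells had 30.6, 23.4 and 30.6 FPKM, against 33.2, 42.4 and 40.4 FPKM in controls. First-set knockdown cells had 22.3 and 26.4 FPKM, against 46.0 and 37.6 FPKM in controls. Every knockdown library was below every control in each set. The knockdown mean was 72.9% of control among new-set and 58.2% among first-set libraries. Mad2l1 fell in the first set (−0.75, SE 0.222, limma adjusted p = 0.0481) and joined (−0.60, SE 0.118, adjusted p = 0.00439), while its new-set value of −0.44 (SE 0.135, adjusted p = 0.074) missed the threshold.

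In the Ndc80 complex the new-set minus first-set difference of the fold changes was −0.02 (SE 0.276) for Ndc80, 0.10 (SE 0.203) for Nuf2 and 0.44 (SE 0.28) for Spc25, and none of the 3 passed. Ndc80, its microtubule-binding subunit, was at 15.02, 8.72 and 10.98 FPKM in new-set knockdown cells, against 15.8, 17.7 and 17.7 FPKM in controls. Its first-set values were 12.5 and 14.0 FPKM with knockdown, against 21.9 and 17.6 FPKM in controls. Groups were apart in each set, and new-set knockdown replicate 10 lay close to the lowest control. Knockdown means were 67.7% (new set) and 67.2% (first set) of control, and neither difference passed on its own (−0.55, SE 0.172, limma adjusted p = 0.0791, and −0.53, SE 0.233, adjusted p = 0.136). The joined value of −0.54 (SE 0.138, adjusted p = 0.0137) did pass, though not without first-set control replicate 1 (adjusted p = 0.0507).

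Nuf2, which pairs with Ndc80 in the microtubule-binding head, was at 17.9, 14.0 and 18.3 FPKM in new-set knockdown cells, against 21.8, 23.6 and 25.6 FPKM in controls. First-set knockdown cells had 14.4 and 15.04 FPKM, against 23.2 and 21.99 FPKM in controls. The groups were apart in each set. Nuf2 was the only one of the 10 to pass in the new set (−0.48, SE 0.12, limma adjusted p = 0.0465), a call that was lost when any 1 library of that set was left out (adjusted p from 0.0545 to 0.141). The first-set value did not pass (−0.58, SE 0.214, adjusted p = 0.0877), and joined it fell by 0.53 on the log2 scale (SE 0.101, adjusted p = 0.00385).

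Spc25, a subunit of the end of the complex that anchors it in the kinetochore, was at 80.7, 59.0 and 88.4 FPKM in new-set knockdown cells, against 89.9, 102 and 109 FPKM in controls. First-set levels were 73.8 and 60.3 FPKM with knockdown, against 145 and 101 FPKM in controls. The groups did not overlap in either set, and in the new set the highest knockdown library nearly reached the lowest control. Spc25 fell in the first set (−0.85, SE 0.245, limma adjusted p = 0.045) and joined (−0.63, SE 0.14, adjusted p = 0.00745), while the new-set value was −0.41 (SE 0.151, adjusted p = 0.115).

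Both large proteins of the outer fibrous layer were the least abundant of the 10 in the new set. Cenpe, a kinesin that moves chromosomes to the spindle equator, had 9.09, 6.19 and 7.87 FPKM in new-set knockdown cells, against 10.5, 10.6 and 11.4 FPKM in controls. First-set values were 8.03 and 8.85 FPKM with knockdown, against 17.1 and 14.98 FPKM in controls. Groups overlapped in neither set, and Cenpe fell in the first set (−0.85, SE 0.233, limma adjusted p = 0.0391) and joined (−0.65, SE 0.115, adjusted p = 0.00267). Its new-set value was −0.46 (SE 0.136, adjusted p = 0.0722), and with the replicate block it passed (adjusted p = 0.0434).

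Cenpf, a dynein-linked protein of the same layer, was at 8.74, 6.65 and 6.56 FPKM in new-set knockdown cells, against 8.31, 8.64 and 9.36 FPKM in controls, with knockdown replicate 10 inside the control range. First-set knockdown cells had 6.72 and 7.23 FPKM, against 9.70 and 11.8 FPKM in controls. Cenpf passed in neither set (−0.24, SE 0.128, limma adjusted p = 0.241, and −0.55, SE 0.245, adjusted p = 0.139), but fell joined (−0.40, SE 0.114, adjusted p = 0.0229). That call was lost with the GC and length correction (−0.24, adjusted p = 0.129), after median-of-ratios rescaling (−0.32, adjusted p = 0.0554) and without new-set control replicate 12, new-set knockdown replicate 11 or 12, first-set knockdown replicate 1 or first-set control replicate 2 (adjusted p from 0.0529 to 0.0718).

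Counting libraries rather than fits, 6 of the 10 genes (Bub1, Mad2l1, Ndc80, Nuf2, Spc25 and Cenpe) had every knockdown library below every control in the new set, where 17.1% of genes tested did. All 10 did so in the first set, where 40.4% did. The same 6 did so in both sets, against 7.6% of the genes tested in both. With the replicate block the new-set count of changed members was 3 in place of 1 (Bub1b, Nuf2 and Cenpe), and 2452 in place of 1015 genes were called in all.

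**Figure D2:**
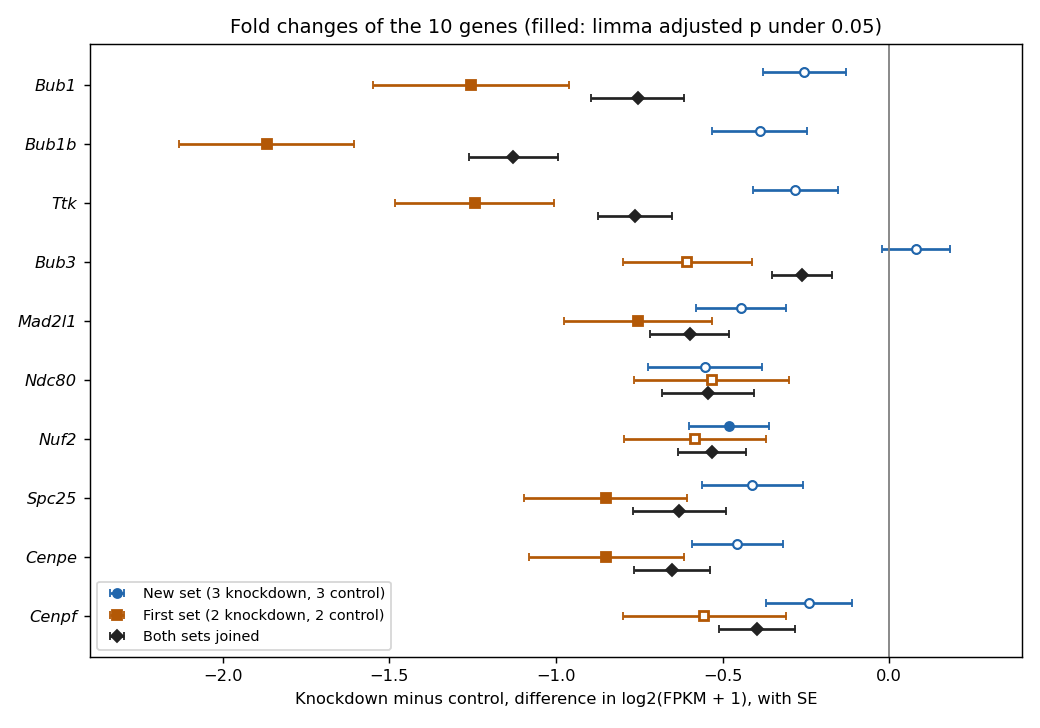
Knockdown minus control difference in log2(FPKM + 1) with its SE (x axis) for each gene (y axis) in the new set, the first set and both joined; filled symbols passed limma at an adjusted p under 0.05. First-set values of Bub1, Bub1b and Ttk lie between −1.87 and −1.24, while the Ndc80 and Nuf2 values of both sets lie between −0.58 and −0.48.

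Fold changes differed between the sets for 4 of the 10 genes, all with a lower first-set value: Bub1b (new set minus first set 1.48, SE 0.268, limma adjusted p = 0.00282), Bub1 (0.999, SE 0.281, adjusted p = 0.02), Ttk (0.96, SE 0.22, adjusted p = 0.00781) and Bub3 (0.69, SE 0.181, adjusted p = 0.015). These are 4 of the 5 checkpoint genes, and 0 of the 5 genes of the Ndc80 complex and outer layer passed (adjusted p from 0.209 to 0.964; 0 at an unadjusted p under 0.05). Of all genes 32.5% differed between the sets, 22.5% with a higher and 9.98% with a lower new-set value. The split by role was not tested, and it did not hold in other lists. There 1 of 8 further checkpoint genes differed, beside 2 of 7 other outer kinetochore genes and 4 of 20 inner ones (2 in each direction). Of 14 genes of attachment correction and cohesion protection 7 differed, 5 with a higher and 2 with a lower new-set value. The difference for Bub3 was lost after median-of-ratios rescaling (0.50, adjusted p = 0.0623) and with a GC and length correction (0.45, adjusted p = 0.077), and that for Bub1 without new-set knockdown replicate 10, first-set knockdown replicate 1 or first-set control replicate 1 (adjusted p from 0.0502 to 0.0755). Ratios within a library need no scaling between libraries. The Bub1b to Nuf2 ratio was 0.426 and 0.436 in first-set knockdown libraries, against 0.971 and 1.35 in first-set controls. In the new set it spanned 1.38 to 1.80 with knockdown and 1.33 to 1.76 in controls. For Ttk to Nuf2 it was 0.326 and 0.368 with first-set knockdown, against 0.581 and 0.613 in first-set controls. In the new set it was 0.608 to 0.770 with knockdown and 0.599 to 0.618 in controls. The Bub1 to Nuf2 ratio was 0.346 and 0.460 with first-set knockdown, against 0.571 and 0.818 in first-set controls. In the new set it was higher with knockdown, at 0.961 to 1.03 against 0.794 to 0.917 in controls. Bub3 to Nuf2 differed from these in the first set, where the groups overlapped (6.85 and 7.65 with knockdown, 7.08 and 7.37 in controls). In the new set the Bub3 to Nuf2 ratio was 7.91 to 10.5 with knockdown and 5.21 to 6.90 in controls. Ndc80 to Nuf2 overlapped in the first set, at 0.867 and 0.930 with knockdown and 0.799 and 0.944 in controls.

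The order of the levels was largely shared. In controls of both sets Bub3 was highest, followed by Spc25 and Mad2l1, and Cenpf was lowest. In new-set knockdown cells the means of Nuf2, Bub1, Ttk, Ndc80, Cenpe and Cenpf followed each other with overlapping ranges between neighbours, and the order of the first 6 was as in controls. Among first-set libraries Bub1b ranked 8 of 10 with knockdown and 4 of 10 in controls, below Cenpf, which ranked 7 with knockdown and 10 in controls. Bub1b, Bub1 and Ttk, at 6.35, 5.95 and 5.11 FPKM, were the lowest of the 10 in first-set knockdown cells, and neighbours among them overlapped.

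In every group most of the 10 genes were highest in the same library. These were 8 genes in new-set knockdown replicate 10 and 7 in new-set control replicate 12. In the first set they were 7 in knockdown replicate 2 and 9 in control replicate 1. New-set knockdown replicate 11 was below its group mean for all 10 genes, by 0.22 on average in log2(FPKM + 1), and replicate 10 was above it for all 10, by 0.20. Replicate 11 was also the deepest new-set library, at 1.39 times the depth of control replicate 10, and whether depth bears on its levels was not tested. Without knockdown replicate 11 the median fold change of the 10 in the new set was −0.25, and without replicate 10 it was −0.49. In that last fit Ndc80 passed (limma, −0.74, adjusted p = 0.0481). First-set control replicate 1 was above control replicate 2 for 9 of the 10 genes, with Cenpf the exception.

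**Figure D3:**
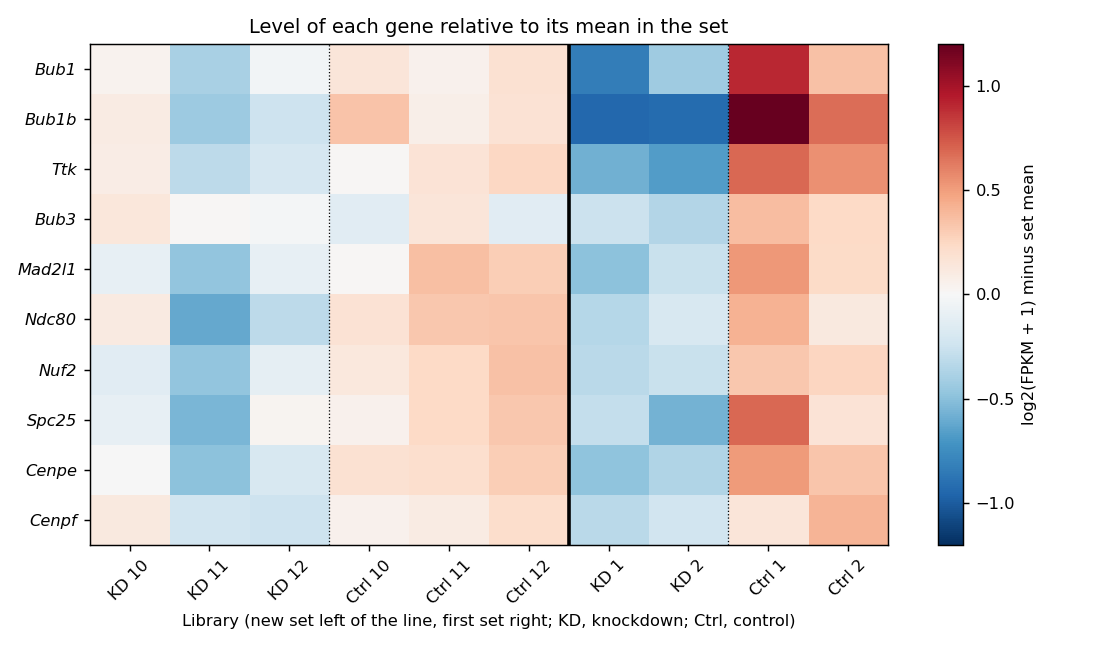
Level of each gene (rows) in each library (columns) as log2(FPKM + 1) minus the mean of its set, with knockdown left of control in each set; blue is below and red above the mean. Knockdown replicate 11 is the lowest of the 3 new-set knockdown libraries for 8 of the 10 genes, and the darkest blue cells are Bub1b in both first-set knockdown libraries.

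Other genes of the kinetochore and of chromosome segregation were called lower in part, to be read against all genes (lower in 5.15% of new-set tests, 10.7% of first-set tests and 20.5% of joined tests). Of 7 other outer kinetochore genes, 1 fell in new-set cells (Nsl1, −0.69), 3 in first-set cells and 5 joined. They include Dsn1 and Mis12 of the Mis12 complex, which links Ndc80 to the centromere (joined −0.86, limma adjusted p = 0.00151, and −0.55, adjusted p = 0.00216), and Pmf1 of the same complex (−0.54, adjusted p = 0.00245). Spc24, the partner of Spc25, did not pass in any fit (joined 0.13, adjusted p = 0.644). Of 20 inner kinetochore and CENP-A loading genes 0 passed in the new set, 5 fell in the first set and 7 joined. In the new set 8 had an unadjusted limma p under 0.05, a threshold at which the share of all genes was not counted. Joined values were −0.93 for Cenpi (limma adjusted p = 0.00135) and −0.65 for Cenpc1 (adjusted p = 0.000867), both of the inner kinetochore. Of 8 further checkpoint genes 1 fell in new-set cells, 1 in first-set cells and 4 joined, the first-set share being near the 10.7% of all genes called lower there. Spindly, listed as Ccdc99, was at −0.89 joined (adjusted p = 0.00215) and Mad1l1, the kinetochore receptor of Mad2, at −0.53 (adjusted p = 0.00771), and Zw10 at −0.55 (adjusted p = 0.0115).

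Most genes of attachment correction and cohesion protection fell in the joined fit. Of 14 tested, 3 fell in new-set cells, 8 in first-set cells and 12 joined, with medians of −0.43, −0.84 and −0.66. Kif2c, the kinesin that removes faulty attachments, was at 24.6 FPKM on average in new-set knockdown cells against 33.3 FPKM in controls, and at 9.80 FPKM in first-set knockdown cells against 30.4 FPKM in controls (joined −0.99, SE 0.125, limma adjusted p = 0.000577). Kif22, a chromosome-arm kinesin (joined −0.95), and Spag5, astrin (−0.97), fell too. In the new set 0 of 20 genes of the anaphase-promoting complex and its substrates passed, and their median was 0.08. There 2 had an unadjusted limma p under 0.05, with no share of all genes counted at that threshold. Of the same 20 genes 7 fell in the first set and 6 joined, where 20.5% of all genes fell. The 6 include the substrate cyclin Ccnb1 (joined −0.93, limma adjusted p = 0.000432), Ccna2 (−0.53) and the subunit Cdc23 (−0.56). Cytokinesis genes (9 of 9 tested fell joined, median −0.83) and replication licensing genes (8 of 11, median −0.52) were on the same side as the 10 (median −0.61), beside −0.11 over all genes. Values for the best-placed genes of these lists were −1.21 for Kif20a, −0.83 for Cep55, −0.88 for Kif20b, −0.96 for Mcm3, −0.64 for Mcm4 and −0.57 for Mcm5 (joined, limma adjusted p from 0.000208 to 0.00549). All these lists were chosen with results of these libraries known, and none was tested as a set.

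**Figure D4:**
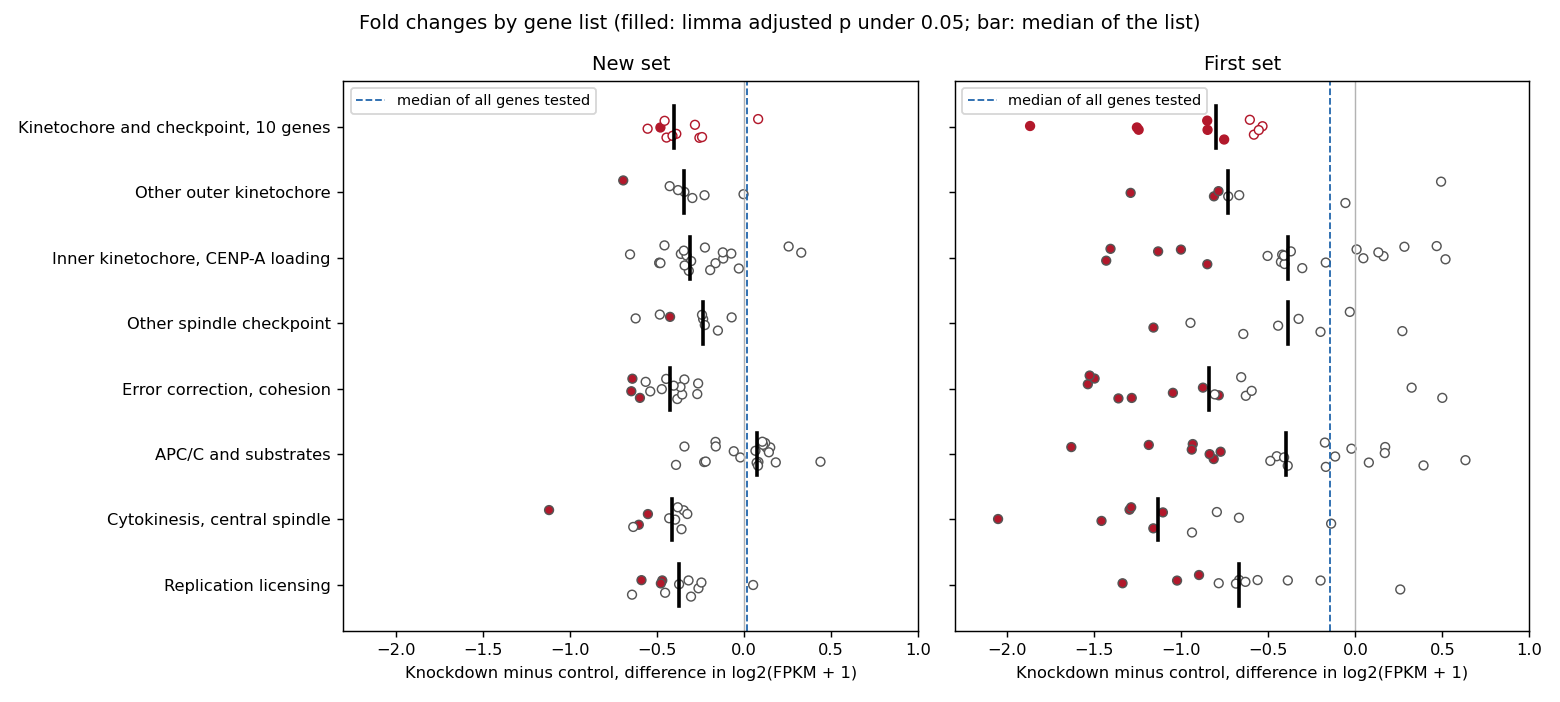
Knockdown minus control difference in log2(FPKM + 1) (x axis) of the tested genes of 8 lists (rows) in the new set (left) and the first set (right); filled points passed limma at an adjusted p under 0.05, black bars are list medians and dashed lines the median of all genes tested. The 10 kinetochore and checkpoint genes sit left of the dashed line in both sets except Bub3 in the new set, and the anaphase-promoting complex list has a new-set median of 0.08.

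Among 7428 genes whose mean reached 5 FPKM in both tables, Ncaph, a condensin subunit, followed the average of the 10 most closely over the 10 libraries (Pearson r = 0.991 of log2 values centred on each set). Ncaph was at 21.6 ± 3.90 FPKM in new-set knockdown cells and 31.6 ± 0.928 FPKM in controls (SD, n = 3 each), and at 15.4 ± 2.09 FPKM in first-set knockdown cells and 40.4 ± 9.93 FPKM in controls (SD, n = 2 each). Next were the spindle protein Tacc3 (0.990), the histone chaperone Asf1b (0.988), the cyclin-box protein Ccnf (0.987), Dpf2 of the BAF complexes (0.986) and the spindle protein Ckap2l (0.986). These are descriptions over 10 libraries that share groups and tables.

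Changes in cell type markers were not alike across the sets. In the new set 9 of 14 radial glia markers and 4 of 8 intermediate progenitor markers fell and 0 rose, and 5 of 13 neuron markers rose and 0 fell, where 5.15% of all genes fell and 3.84% rose. Summed radial glia levels were 1157 to 1733 FPKM in new-set knockdown libraries and 1432 to 1848 FPKM in controls. Fabp7 alone was at 592 to 1105 FPKM in these knockdown libraries and 702 to 1011 FPKM in these controls. Summed intermediate progenitor levels were 612 to 676 FPKM with knockdown and 899 to 1061 FPKM in controls, and summed neuron levels were 3415 to 4157 FPKM with knockdown and 2449 to 2865 FPKM in controls. With first-set knockdown, where 10.7% of all genes fell and 13.2% rose, 3 of 14 radial glia markers fell, and neuron markers did not rise: 4 of 13 fell, Dcx, Neurod6 and Bcl11b among them, with sums of 3207 to 3416 FPKM with knockdown and 4449 to 5065 FPKM in controls. First-set intermediate progenitor markers were split, with Eomes, Btg2 and Mfap4 lower and Hes6 and Gadd45g higher, and sums of 577 to 1016 FPKM with knockdown and 611 to 613 FPKM in controls. Gadd45g alone was at 582 FPKM in first-set knockdown replicate 1. First-set radial glia sums were 1082 and 2244 FPKM with knockdown and 1886 and 1920 FPKM in controls. Prom1 and Pax6 of radial glia fell joined (−0.94, limma adjusted p = 0.00115, and −0.72, adjusted p = 0.00313), Mfap4 fell (−0.86) and Hes6 rose (0.69) among progenitor markers, and Bcl11b fell (−0.54) and the neurofilament gene Nefl rose (1.26) among neuron markers. Summed levels of 8 microglia markers were 13.9 and 26.3 FPKM with first-set knockdown and 1.52 and 6.03 FPKM in first-set controls. The 4 of them called higher there (Cx3cr1, C1qa, C1qc and Tyrobp) had control means under 1 FPKM and met the low-value filter only through the knockdown libraries, whose olfactory receptor means were 0.672 and 0.557 FPKM, so their calls are not read as a result. Of 5 erythroid markers tested, Hba-a2 and Hbb-b2 fell in the new set, with sums over the 9 listed of 23.6 to 115 FPKM with knockdown and 150 to 281 FPKM in controls. The erythroid marker Hbb-bh1 was listed at 0 in 9 of the 10 libraries, with 0.151 FPKM in new-set control replicate 11. The part of these cell types in the levels of the 10 genes was not tested.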

How the data were processed

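RNA was sequenced from GFP-positive sorted cells; RNeasy Plus extraction and a Clontech low-input library kit are named per the labels' protocols. The authors deposited FPKM values, 1 column per library, in separate tables for the new and the first set. TopHat2, Bowtie, Cufflinks 2.0.0, Cuffdiff and build mm9 are named per the submitters' processing notes. The annotation, the filters and the use of strand are not stated in any source used here. In GENCODE M21 (GRCm38) no exon of another gene overlaps an exon of the 10 genes.

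Values were analysed as log2(FPKM + 1), which understates changes of low genes, over genes whose mean in a table reached 1 FPKM. limma 3.58.1 (R 4.3.3) was run on each set by itself (lmFit and eBayes with trend, two-sided; 4 and 2 residual degrees of freedom), and a joined fit (6 residual degrees of freedom) gave the mean and the difference of the within-set fold changes. P-values were adjusted by Benjamini-Hochberg over all genes tested. No test compares a level in one table with a level in the other. The fit was run on simulated data with the same independent noise for every gene and library. Pairing, unequal depth and the raised olfactory receptor level were left out, so the run does not show how the fit behaves on these libraries. The reported fits did not use pairing, and only the replicate block, an alternative, took the replicate numbers as pairs. In the new set deviations of same-numbered libraries from their group means correlated at 0.123, 0.232 and 0.167 across 8512 genes. In the first set the value was −0.0284.

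The members and lists were chosen with earlier results of these data known. Named genes were the 10 members, Chd8, up to 3 genes of each pathway list and 2 of each cell type list with the smallest joined p, and the 6 genes most like the members; Nsl1, Spc24, Cdc20 and other markers were named after their values were seen. A gene chosen by this rule is not reported here. The alternatives were other pseudocounts, filters, scaling, no trend, the replicate block, background subtraction by olfactory receptor genes, leaving out each library and, added after seeing the data, a GC and length correction.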

Additional observations from a re-analysis of the deposited data

Results flagged for a closer look

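The fold change differed between the sets, by a test of the difference itself, for 4 of the 10 genes, where 32.5% of all genes differed and 22.5% did so in this direction. As new set minus first set on the log2 scale, the differences were 1.48 for Bub1b (limma adjusted p = 0.00282), 0.999 for Bub1 (adjusted p = 0.02), 0.96 for Ttk (adjusted p = 0.00781) and 0.69 for Bub3 (adjusted p = 0.015). Every first-set knockdown library was below every first-set control for each of them, as for 40.4% of genes tested. In the new set Bub1b, Ttk and Bub3 overlapped between knockdown and control. Bub1b and Ttk passed in all 19 alternatives, Bub3 in 17 and Bub1 in 16. The first-set knockdown libraries have 0.525 and 0.529 times the depth of first-set control replicate 1 and olfactory receptor means of 0.672 and 0.557 FPKM. With the olfactory receptor level subtracted as background, 4 of the 10 differences passed. That subtraction lowers mainly the first-set knockdown values, which widens differences in this direction, so it could hardly remove these calls. The parts of that background and of depth were not tested. Hairpin, batch and table all change with the set, so their parts cannot be told apart.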

How the results depend on the processing

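With both sets joined, all 10 genes stayed below 0 in every alternative and 8 to 10 passed. Bub3 passed in 6 of 19 alternatives, Cenpf in 12, Ndc80 in 18 and the other 7 genes in all. In the new set the count of changed members was 1; it was 0 without the low-value filter and without the intensity trend, 3 with the replicate block, 2 with the GC and length correction, and 0 to 1 without each library in turn. In the first set it was 6; it was 2 with no filter, 3 after median-of-ratios rescaling, 4 with the GC and length correction and 0 to 1 without each library in turn, where a group left with 1 library is assumed to share the spread of the others. The replicate block changed no joined call among the 10 and left 4 first-set calls. Whether the first-set numbers pair the libraries is not known. With 2 libraries a group the correlation of same-numbered libraries (−0.0284) is a single value and cannot settle it. The cause of these shifts was not tested, except that leaving out a library leaves fewer samples. The difference between sets changed sign only where it was near 0. For Ndc80 it was −0.02, beside 0.00217 with a pseudocount of 5, 0.0437 with background subtraction and −0.21 to 0.151 without each library in turn (5 of 10 above 0). For Nuf2 it was −0.0779 after rescaling and −0.047 with the GC and length correction, and for Cenpf −0.023 with that correction. Counts over all genes ranged from 88 to 2452 in the new set (1015 as reported), 713 to 2998 in the first set (2971), 2378 to 5917 joined (3238) and 2546 to 6345 for the difference (3520). First-set effects of single genes rest on 2 libraries a group and unknown absolute depth.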

Other observations

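Levels across the separately normalized tables were not tested, but some genes, mitotic and other, stood far apart between them while most of the 10 did not. Nuf2 averaged 16.7 FPKM in new-set knockdown cells and 23.6 FPKM in new-set controls, close to the 14.7 FPKM in first-set knockdown cells and 22.6 FPKM in first-set controls. Cdc20, the activator that the checkpoint inhibits, averaged 105 and 122 FPKM in new-set knockdown and control cells, and 21.1 and 21.6 FPKM in first-set knockdown and control cells. Ccna2 averaged 103 and 120 FPKM in new-set knockdown and control cells, and 12.5 and 23.2 FPKM in first-set knockdown and control cells. Neurog2, an intermediate progenitor marker, averaged 278 FPKM in new-set controls and 36.0 FPKM in first-set controls. Cdc20 and Neurog2 were chosen after their values were seen.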
